A study of Homo sapiens with 6 samples.

Results

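The genes examined were those of fibroblast growth factor (FGF) signalling in HK-2 cells with and without TGF-β1, namely the ligands FGF1, FGF2, FGF5, FGF9 and FGF18, the receptors FGFR1 to FGFR4, and the FGF carrier FGFBP1. These 10 genes were taken by name, on the primary chromosomes, from the 41497 named entries of the deposited tables, and each had 1 entry, whose identifier was the symbol with the prefix gene-. HK-2 is an immortal human cell line made from proximal tubule epithelium, and TGF-β1 is a cytokine that drives fibrosis of the kidney. RNA was sequenced from 3 control libraries of untreated wild-type cells and from 3 libraries of wild-type cells given TGF-β1, all at 24 hours. The methods of the study describe its TGF-β treatments as free of serum, and do not say whether untreated cells were handled alike. Whether the libraries of a group came from separate cultures was not stated, so p values measure only the spread between these libraries, which may be technical.

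FGFs are signalling proteins that bind receptor tyrosine kinases on the cell surface together with heparan sulfate, a sugar chain carried by cell-surface and matrix proteins. The bound receptor signals through adaptor proteins to RAS and the ERK kinases, and the pathway switches on transcription factors of the ETS family and its own inhibitors of the SPRY and DUSP families. In the kidney, FGF receptors act in nephron development, and the hormone FGF23 acts on tubular cells through FGF receptors and the co-receptor Klotho.

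After TGF-β1, FGF2 rose 1.63-fold and FGFR1 rose 1.14-fold, while FGFR2 was 2.40-fold lower, FGF1 was 1.73-fold lower and FGFR3 was 1.21-fold lower. FGFR4 did not pass the test. Of the 10 genes, 8 had enough reads to be tested, of which 2 were called higher, 3 were called lower and 3 were not called at an adjusted p under 0.05 in the edgeR quasi-likelihood test. Over all 14860 genes tested, 44.3% were called, 22.2% higher and 22.1% lower, so a call by itself did not set an FGF gene apart from the other genes of these cells. With libraries scaled by their totals only, the split of all genes was 2134 higher and 4590 lower, against 3294 and 3288 in the main test. The median log2 fold change of the 8 tested genes was -0.15, and that of all genes tested was 0.01. Ranges of CPM, the count scaled to library size, did not overlap between groups for 6 of the 8, against 55.6% of all genes tested. One gene of the 8, FGFR2, was called with a change of at least 2-fold, against 9.06% of all genes tested.

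The libraries had 21.9 to 26.9 megacounts. The known TGF-β response genes SMAD7, SKIL and TGFBI were called higher, with log2 fold changes of 1.64, 1.08 and 2.33. Of the tubular epithelial markers, the keratins KRT8 and KRT18 had mean levels of 723 and 449 TPM (a level per transcript length) in controls and 1041 and 620 TPM after TGF-β1. PAX8 had 206 TPM in controls and 114 TPM after TGF-β1, and EPCAM had 35.2 and 13.6 TPM. Of the 7 markers that define the proximal tubule, 4 passed the filter and LRP2 had no read in any library. Their sum was 80.2 to 96.4 TPM in controls and 52.0 to 60.8 TPM after TGF-β1, most of it GGT1 (means of 85.9 and 52.8 TPM). AQP1 (28 and 123 reads) and CUBN (34 and 61 reads) were called higher. The control libraries of AQP1 (5, 7 and 16 reads) and CUBN (13, 10 and 11 reads) would not have passed the count filter alone. The 4 fibroblast markers summed to 71.6 to 86.3 TPM and 58.8 to 62.8 TPM, most of it LUM, with PDGFRB at 39 reads in controls and 413 after TGF-β1, and PDGFRA at 2 and 4 reads. The 3 leukocyte markers summed to 183 to 199 TPM and 111 to 147 TPM, nearly all of it CD68, a lysosomal protein, with CD3E at 0 reads and PTPRC at 2 reads in each group. The 4 endothelial markers summed to at most 1.15 TPM and the 2 podocyte markers to at most 0.235 TPM in any library, and both sums were lower after TGF-β1, with CDH5 at 62 and 0 reads, PECAM1 at 14 and 0 reads and NPHS1 at 24 and 3 reads. The part of these shifts in the FGF results was not tested, and in bulk RNA a change in the share of a cell type cannot be told apart from a change of RNA per cell. TGF-β1 replicate 1 stood apart from the other TGF-β1 libraries on the second principal component (26.9, against -13.2 and -15.1), which held 9.94% of the variance. Without it the 5 calls stood, with log2 fold changes of 0.76 for FGF2, 0.17 for FGFR1, -0.72 for FGF1, -1.30 for FGFR2 and -0.26 for FGFR3.

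**Figure D1:**
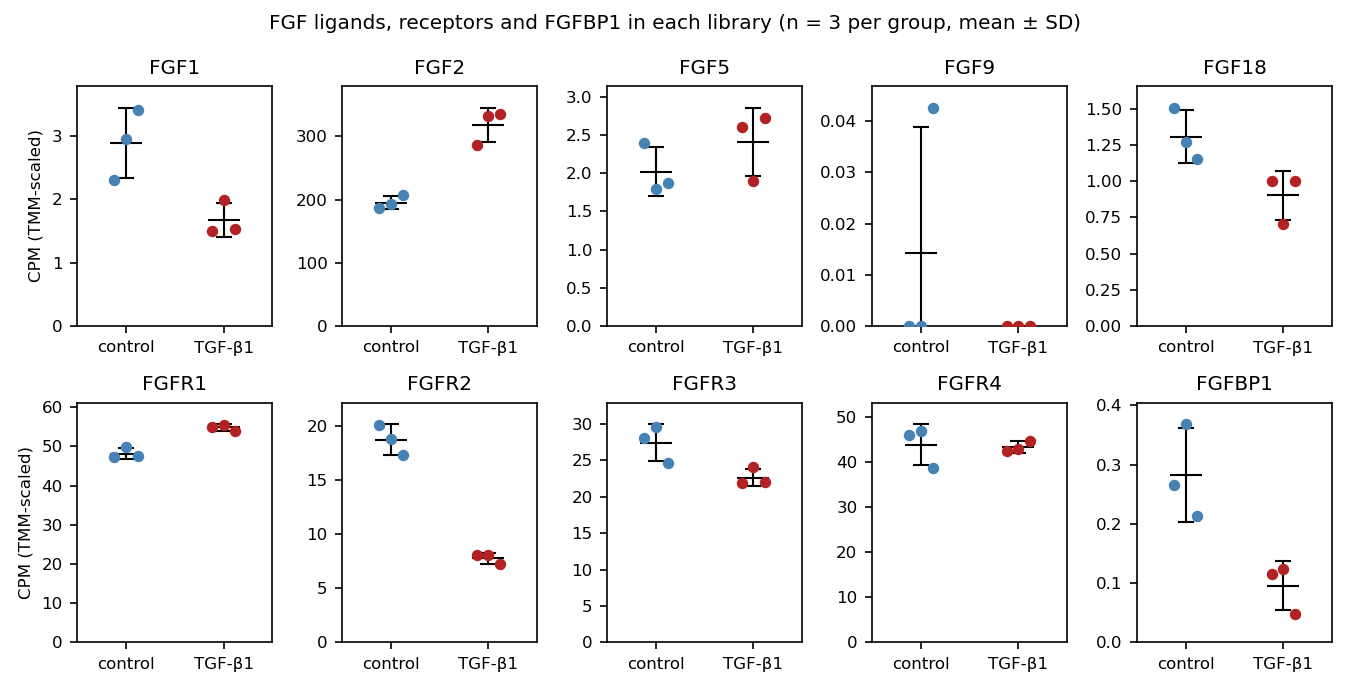
Level of each of the 10 genes in each library, as CPM (the count relative to library size) on a linear axis that starts at 0 and differs between panels, with points for libraries and bars for the mean and SD of 3. The groups are apart for FGF2 and FGFR1, which are higher after TGF-β1, and for FGF1, FGF18, FGFR2, FGFR3 and FGFBP1, which are lower, while those of FGF5 and FGFR4 overlap and FGF9 has a single read in all.

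FGF2, or basic FGF, is a mitogen of fibroblasts and epithelial cells that leaves the cell without a signal peptide and is stored on heparan sulfate. The gene spans chr4:122826708-122898236 (GRCh38, plus strand). Its counts were 4212, 4716 and 4850 in the control libraries and 7480, 8054 and 7014 in the TGF-β1 libraries. Scaled to library size, these were 187, 193 and 207 CPM against 287, 333 and 335 CPM. Each TGF-β1 library was above each control library, and replicate 1 was the lowest of the treated libraries. The mean rose from 195 ± 10.3 to 318 ± 27.0 CPM (SD, n = 3 each), a log2 fold change of 0.70 ± 0.07 (SE; 95% interval 0.55 to 0.86; edgeR adjusted p = 1.4e-05). FGF2 shared 704 of its 6775 exon bases with NUDT6 on the opposite strand, and the strand setting of the counting was not stated, so reads of the shared bases cannot be told apart. NUDT6 itself had 135 reads in controls and 130 after TGF-β1 (log2 fold change -0.08 ± 0.24, edgeR adjusted p = 0.817).

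FGF1, or acidic FGF, binds all 4 receptors and like FGF2 lacks a signal peptide. It lies at chr5:142592178-142698070 on the minus strand. It had 52, 72 and 80 reads in the control libraries and 39, 48 and 32 in the TGF-β1 libraries. All treated libraries were below all controls, the control libraries being the more scattered. The mean was 2.89 ± 0.555 CPM in controls and 1.67 ± 0.273 CPM after TGF-β1, and the log2 fold change was -0.79 ± 0.20 (95% interval -1.24 to -0.34; edgeR adjusted p = 0.00903).

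The other 3 ligands were scarce. FGF18, which acts in cartilage and bone, lies at chr5:171419647-171457626. It had 34, 31 and 27 reads in controls and 26, 17 and 21 after TGF-β1. Its CPM ranges did not overlap and were lower after TGF-β1, but the change was not called (log2 fold change -0.54 ± 0.23, edgeR adjusted p = 0.0866). It was called when libraries were scaled by their totals only (-0.64, edgeR adjusted p = 0.0448), a scaling that moved the median of all genes from 0.01 to -0.10. FGF5, known as a regulator of the hair cycle, lies at chr4:80266588-80291017. Its reads were 54, 44 and 44 in controls and 68, 46 and 57 after TGF-β1, with overlapping groups (0.25 ± 0.20, 95% interval -0.19 to 0.70, edgeR adjusted p = 0.334). FGF9, at chr13:21671073-21704501, had 1 read in control replicate 3 and none in any other library, too few to compare (exact conditional binomial p = 0.479, 95% interval of the read ratio 0 to 35.9).

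The promoters of both called ligands are shown, and a link of their bases to the direction of change was not tested. The sequences are those of RefSeq on GRCh38.p14, written 5′ to 3′ on the strand of the gene up to the base before its first exon, with GC boxes (GGGCGG or its complement CCGCCC) in capitals. FGF2 is at chr4:122826581-122826707 (plus strand) and FGF1 at chr5:142698071-142698320 (minus strand).
FGF2: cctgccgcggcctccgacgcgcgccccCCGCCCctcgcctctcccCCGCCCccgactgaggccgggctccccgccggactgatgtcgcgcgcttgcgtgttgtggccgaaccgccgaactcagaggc
FGF1: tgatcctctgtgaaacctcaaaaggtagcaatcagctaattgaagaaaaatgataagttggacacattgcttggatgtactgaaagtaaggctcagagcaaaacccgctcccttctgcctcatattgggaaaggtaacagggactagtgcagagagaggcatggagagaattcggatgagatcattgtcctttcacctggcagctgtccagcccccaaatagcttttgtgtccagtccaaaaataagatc
The printed 127 bases of FGF2 held 2 GC boxes and 20 CpG dinucleotides, and the 250 bases of FGF1 held no GC box and 2 CpG. Over the whole 250-base RefSeq window, which for FGF2 runs 123 bases into the deposited first exon, FGF2 was 75.2% G or C and FGF1 was 44.8%, beside a median of 58.0% over 35116 windows of the same length. Neither window held the SMAD element CAGAC, the AP-1 element TGANTCA or the TATA element TATAAA on either strand, whereas these were found in 38.0%, 6.57% and 10.7% of all windows, and the GC box in 42.6%. These are matches of letters in a short window. FGF1 has other RefSeq starts, and the window before the start that lies 53831 bases inside the gene held 1 CAGAC, 1 TGANTCA and 1 GC box. The window before the start 11980 bases inside the gene was 60.8% G or C, with 1 GC box and 7 CpG. Counts per gene do not show which start the cells used, so the difference in composition depends on the start chosen.

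FGFBP1, a secreted carrier that releases FGFs from the matrix, lies at chr4:15935577-15938740 and was under the count filter. It had 6, 9 and 5 reads in the control libraries and 3, 3 and 1 in the TGF-β1 libraries. All treated libraries were lower than all controls. Relative to the total counts, the read ratio was 0.322 (95% exact interval 0.115 to 0.792; exact conditional binomial p = 0.00679), an interval that covers counting error only. The exact permutation test over libraries gave p = 0.1, the smallest that 3 against 3 can give. Without control replicate 2, which had the most reads, the ratio was 0.382 and the exact conditional p was 0.0502. When all genes with a count were kept, the log2 fold change was -1.47 ± 0.65 (edgeR adjusted p = 0.0858). The 250 bases before its start held 2 copies of the SMAD element CAGAC, which was found in 38.0% of all windows of this length. A link of this element to the reads of FGFBP1 was not tested.

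FGFR2 changed most among the receptors. It is a receptor of branching epithelia whose exon choice sets which ligands it binds, and it spans chr10:121478330-121598458 on the minus strand. Its counts were 454, 461 and 406 in the control libraries and 210, 196 and 151 in the TGF-β1 libraries. The groups were far apart, with the highest treated library at 8.11 CPM and the lowest control at 17.3 CPM. The mean was 18.8 ± 1.41 CPM in controls and 7.79 ± 0.506 CPM after TGF-β1, and the log2 fold change was -1.26 ± 0.09 (95% interval -1.46 to -1.07; edgeR adjusted p = 9.4e-07).

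FGFR3, which restrains bone growth, lies at chr4:1793293-1808872 on the plus strand. It had 28.0, 29.6 and 24.7 CPM in controls and 21.8, 24.0 and 22.0 CPM after TGF-β1. The groups did not overlap, with a narrow gap between the third control and the second treated library. The means were 27.4 ± 2.50 and 22.6 ± 1.23 CPM, and the log2 fold change was -0.28 ± 0.08 (edgeR adjusted p = 0.0155). The call was lost without control replicate 1 (-0.26, edgeR adjusted p = 0.0595) and without control replicate 2 (-0.22, edgeR adjusted p = 0.0845).

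FGFR1, a receptor widely made by mesenchymal cells, lies at chr8:38411143-38468635 on the minus strand. It had 47.1, 49.7 and 47.5 CPM in controls and 55.0, 55.5 and 53.9 CPM after TGF-β1. All treated libraries were above all controls by a small margin. The means were 48.1 ± 1.42 and 54.8 ± 0.812 CPM, and the log2 fold change was 0.19 ± 0.05 (95% interval 0.07 to 0.31; edgeR adjusted p = 0.0172). The call was lost with total counts only (0.08, edgeR adjusted p = 0.275) and when control replicate 1, control replicate 3 and then the second TGF-β1 library were each left out (0.17 to 0.18, with edgeR adjusted p of 0.0686, 0.0532 and 0.0643).

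FGFR4, known as the liver receptor for FGF19, lies at chr5:177086915-177098144. It had 45.9, 46.8 and 38.6 CPM in controls and 42.3, 42.7 and 44.7 CPM after TGF-β1. The treated libraries lay inside the control range, which the third control widened. The log2 fold change was -0.02 ± 0.08 (edgeR adjusted p = 0.876), and its 95% interval of -0.19 to 0.15 leaves room for a small change either way.

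**Figure D2:**
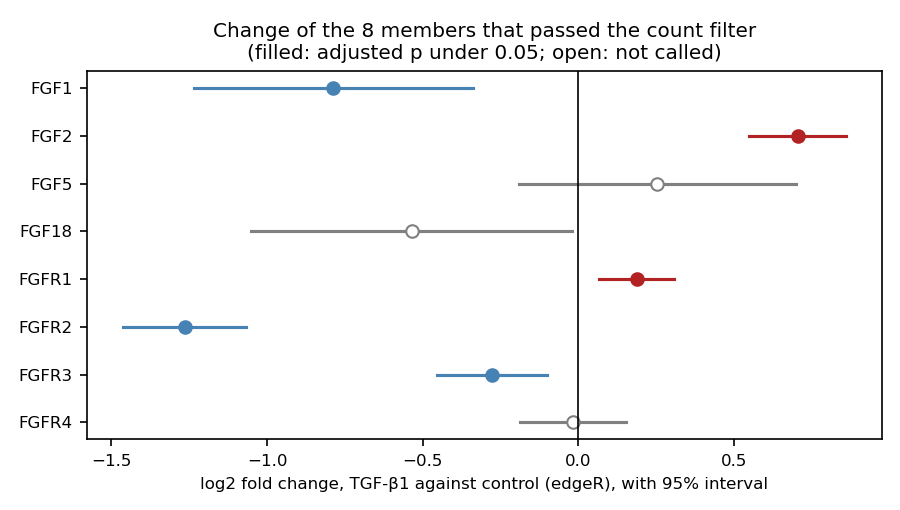
Log2 fold change of the 8 tested genes after TGF-β1 against control from edgeR (horizontal axis), with lines for the 95% interval, filled points for genes called at an adjusted p under 0.05 and open points for the others. FGFR2 at -1.26 and FGF1 at -0.79 lie farthest below 0 and FGF2 at 0.70 farthest above it, and the intervals of FGF1 and FGF18 are the widest of those below 0.

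The promoters of the receptors called lower are shown as a pair. They follow the same conventions, with FGFR2 at chr10:121598459-121598694 (minus strand) and FGFR3 at chr4:1793043-1793292 (plus strand).
FGFR2: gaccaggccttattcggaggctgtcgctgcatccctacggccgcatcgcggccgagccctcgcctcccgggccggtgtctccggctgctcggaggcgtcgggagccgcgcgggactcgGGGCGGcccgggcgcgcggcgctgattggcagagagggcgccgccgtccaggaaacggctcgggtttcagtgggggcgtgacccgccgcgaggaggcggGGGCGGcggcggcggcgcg
FGFR3: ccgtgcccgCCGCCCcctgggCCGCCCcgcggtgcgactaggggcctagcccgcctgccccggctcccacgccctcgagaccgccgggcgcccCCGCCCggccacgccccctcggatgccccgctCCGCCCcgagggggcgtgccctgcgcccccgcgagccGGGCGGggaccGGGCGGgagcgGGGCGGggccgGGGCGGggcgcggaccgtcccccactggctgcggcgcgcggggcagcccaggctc
The printed 236 bases of FGFR2 held 2 GC boxes and 40 CpG, and the 250 bases of FGFR3 held 8 GC boxes and 40 CpG, beside a median of 11 CpG over all windows of 250 bases. FGFR4, whose level did not pass the test, had 7 GC boxes and 24 CpG in its window, and the window of FGFR1 was not analysed here. None of these 3 windows held the SMAD, AP-1 or TATA element. Among windows before other RefSeq starts, 3 of FGFR2 held 1 CAGAC each and 1 of FGFR4 held 2. At the first RefSeq start, the window of FGF2, which was called higher, held 33 CpG. Those of FGF18 and FGF5, not called, held 31 and 27, and those of FGF1 and FGFBP1 held 2 each.

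TPM values, in which counts are divided by gene length, put the genes on 1 scale. In controls the order of mean TPM was FGF2 (96.0), FGFR4 (45.9), FGFR1 (20.8), FGFR3 (20.4), FGFR2 (7.22), FGF18 (2.18), FGF1 (1.97), FGF5 (1.18), FGFBP1 (0.694) and FGF9 (0.00968). The library ranges of FGFR1 and FGFR3 overlapped, as did those of FGF18 and FGF1, and the other neighbours did not overlap. After TGF-β1 the order was FGF2 (144), FGFR4 (41.9), FGFR1 (21.8), FGFR3 (15.5), FGFR2 (2.77), FGF18 (1.38), FGF5 (1.30), FGF1 (1.05), FGFBP1 (0.217) and FGF9 (0). FGFR1 was then above FGFR3 without overlap, while FGF18 overlapped FGF5 and FGF5 overlapped FGF1.

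Receptor shares were computed within each library, which removes library scaling. FGFR4 made up 48.6 ± 1.36% of the summed receptor TPM in controls and 51.1 ± 1.31% after TGF-β1. FGFR1 went from 22.1 ± 1.53% to 26.6 ± 0.538%. FGFR3 had 21.6 ± 0.357% and 18.9 ± 0.853%, and FGFR2 had 7.66 ± 0.360% and 3.38 ± 0.237%. The groups were apart for each receptor. In each case the exact permutation test gave p = 0.1 (two-sided, adjusted p over the 4 shares 0.1), the smallest that this design allows, so no share could pass 0.05. The summed receptor level was 94.4 ± 6.10 TPM in controls and 82.0 ± 3.42 TPM after TGF-β1 (exact permutation p = 0.1). Shares are relative, so a share can rise while the level of its gene does not. Mean TPM went from 45.9 to 41.9 for FGFR4 and from 20.8 to 21.8 for FGFR1, with overlapping library ranges for both.

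**Figure D3:**
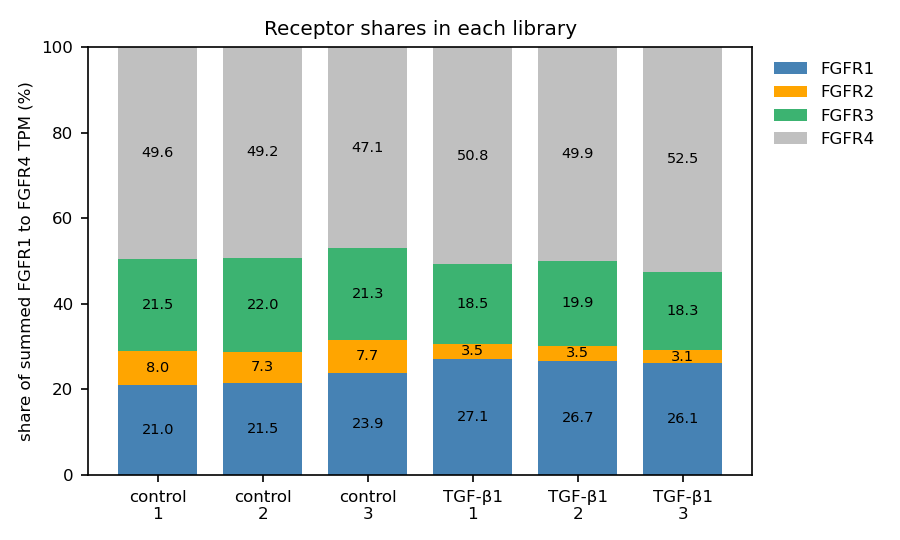
Share of each receptor in the summed TPM of FGFR1 to FGFR4 (vertical axis, percent), stacked to 100 for each of the 6 libraries, with the share printed in each segment. FGFR2 has 7.3% to 8.0% in the control libraries and 3.1% to 3.5% in the TGF-β1 libraries, and FGFR4 is near 50% in all.

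Among the 5 ligands examined, FGF2 held 94.7 ± 0.322% of their summed TPM in controls and 97.5 ± 0.362% after TGF-β1. FGF1 had 1.94 ± 0.287% and 0.710 ± 0.0964%, FGF18 had 2.16 ± 0.397% and 0.945 ± 0.226%, and FGF5 had 1.17 ± 0.232% and 0.886 ± 0.199%. The groups did not overlap for FGF1, FGF2 and FGF18, with an exact permutation p of 0.1 each and 0.167 adjusted over the 5 shares. The summed level of these 5 ligands was 101 ± 6.89 TPM in controls and 148 ± 16.0 TPM after TGF-β1 (exact permutation p = 0.1). The secreted ligand FGF22 was outside this sum, with means of 0.847 TPM in controls and 1.31 TPM after TGF-β1.

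Of the 13 other secreted FGFs, 9 had no read in any library, which allows up to 0.0442 CPM in controls and 0.0406 CPM after TGF-β1 at 3 counts over the group. FGF22 alone passed the filter, with 24 reads in controls and 40 after TGF-β1 (log2 fold change 0.72 ± 0.34, edgeR adjusted p = 0.109). FGF12, an intracellular relative that binds sodium channels and is not secreted, fell from 17.4 ± 0.917 to 11.0 ± 0.489 CPM (-0.66 ± 0.08, edgeR adjusted p = 5.5e-05).

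Of 12 co-receptors and binding proteins, 10 were tested, of which 4 were called higher and 2 lower, beside 44.3% called over all genes. CDH2, or N-cadherin, which binds FGFR1, rose from 304 ± 3.94 to 629 ± 19.5 CPM (log2 fold change 1.05 ± 0.05). KL encodes Klotho, the co-receptor of FGF23, and rose from 7.87 ± 0.802 to 12.7 ± 0.429 CPM (0.69 ± 0.10), although FGF23 itself had no read. FLRT2, a membrane protein that binds FGF receptors, rose by 1.26 ± 0.17 on the log2 scale. Its relative FLRT3, among the 2 called lower, fell by 2.24 ± 0.32, from 99 reads to 21. FLRT3 had 10, 5 and 6 reads in the TGF-β1 libraries, and passed the count filter only through its control libraries. FGFRL1, a receptor that lacks the kinase domain, rose by 0.57 ± 0.11, and the adhesion molecule L1CAM fell from 411 ± 19.0 to 195 ± 14.0 CPM. The median of the 10 was 0.60 on the log2 scale.

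Heparan sulfate core proteins moved both ways. Of 10 tested, 2 were called higher and 4 lower, beside 44.3% called over all genes, with a median log2 fold change of -0.26. The syndecan SDC1 rose (0.68 ± 0.06), whereas SDC3 (-0.84 ± 0.07), SDC4 (-0.45 ± 0.06) and SDC2 (-0.43 ± 0.06) fell. The glypican GPC6 rose from 21.4 ± 3.59 to 42.4 ± 1.63 CPM, and perlecan, the matrix proteoglycan encoded by HSPG2, fell from 269 ± 11.2 to 158 ± 2.81 CPM. EdgeR adjusted p values of these 6 were between 7.1e-07 and 1.4e-04.

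Of the 24 enzymes that build, sulfate or cut heparan sulfate, 14 were tested. Of these, 5 were called higher and 3 lower, beside 44.3% called over all genes, and the median was 0.11. HS3ST3A1 and HS3ST3B1, which add 3-O-sulfate groups, rose by 1.31 ± 0.05 and 1.13 ± 0.09. These close copies share part of their sequence, so how reads were divided between them is uncertain. The related HS3ST1 had 19, 13 and 19 reads in controls and 0, 0 and 2 after TGF-β1, a read ratio of 0.0361 (95% exact interval 0.00425 to 0.137). HS3ST1 is among the 3 called lower, and passed the count filter only through its control libraries. HPSE, or heparanase, which cleaves heparan sulfate chains, fell from 19.2 ± 1.20 to 7.93 ± 0.454 CPM. The remaining calls were NDST1 (0.45 ± 0.07), HS6ST1 (0.38 ± 0.10) and EXT1 (0.28 ± 0.05), which were higher, and GLCE (-0.38 ± 0.07), which was lower.

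**Figure D4:**
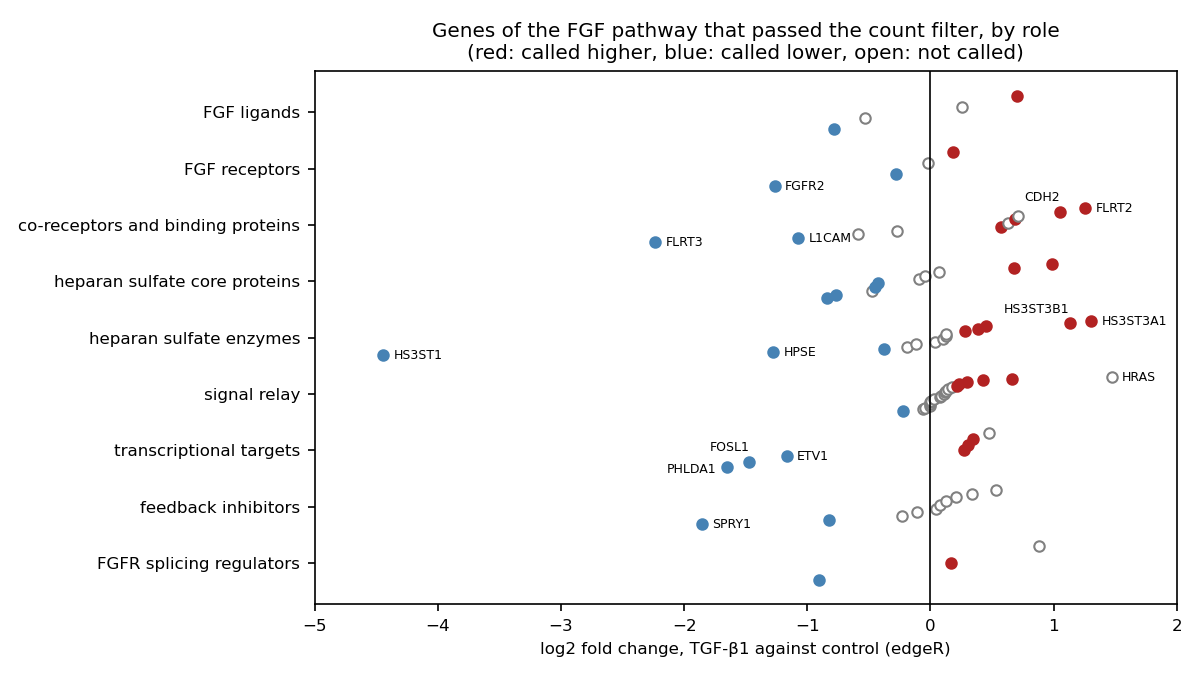
Log2 fold change after TGF-β1 against control from edgeR (horizontal axis) for each tested gene of the FGF pathway, in rows by role, with red points called higher, blue points called lower and open points not called at an adjusted p under 0.05. The relay row lies near 0, while co-receptors, heparan sulfate genes and targets spread to both sides. HRAS is far to the right without a call, and HS3ST1 at the far left rests on 2 treated reads.

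Of the 21 genes that relay the signal, all tested, 5 were called higher, 1 lower and 15 were not called, beside 44.3% called over all genes, and the median was 0.11. The adaptor SHC1 rose from 134 ± 2.34 to 213 ± 8.20 CPM (0.66 ± 0.05), followed by PIK3R1 (0.42 ± 0.07), NRAS (0.30 ± 0.05), MAP2K1 (0.23 ± 0.06) and FRS2 (0.22 ± 0.08), the docking protein of FGF receptors. SOS1 was lower (-0.22 ± 0.08). The calls of FRS2 and SOS1 had edgeR adjusted p values of 0.0429 and 0.0404 and were lost in 8 and 4 of the 14 alternatives, and that of MAP2K1 was lost with total counts only (0.13, edgeR adjusted p = 0.101). HRAS had 6, 55 and 67 reads in controls and 193, 22 and 140 after TGF-β1, with overlapping groups. It was not called (1.47 ± 1.12, edgeR adjusted p = 0.360). It has a second entry on an alternate contig, so its value is uncertain.

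The 7 targets of FGF and ERK signalling are also induced by other receptors. Of these, 3 were called higher and 3 lower, beside 44.3% called over all genes. PHLDA1 fell from 359 ± 7.86 to 114 ± 1.07 CPM, FOSL1, a subunit of AP-1, fell from 85.8 ± 3.16 to 30.9 ± 5.49 CPM, and ETV1 fell from 51.6 ± 1.85 to 23.0 ± 1.83 CPM. The related ETS factors ETV5 (0.30 ± 0.07) and ETV4 (0.27 ± 0.08) were higher, as was CCND1, or cyclin D1 (0.35 ± 0.07). The call of ETV4 was lost with total counts only and when control replicate 1, control replicate 3 and then the first TGF-β1 library were each left out. EGR1 was not called (0.48, edgeR adjusted p = 0.0646).

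Of the 12 feedback inhibitors, 10 were tested, of which 2 were called lower and 8 were not called, beside 44.3% called over all genes. SPRY1, a Sprouty protein that restrains ERK signalling, fell from 4.86 ± 0.900 to 1.34 ± 0.0414 CPM (-1.86 ± 0.18, edgeR adjusted p = 1.2e-05). DUSP5, a nuclear ERK phosphatase, fell from 30.7 ± 1.80 to 17.4 ± 1.08 CPM (-0.82 ± 0.07). DUSP6, often used as a readout of FGF signalling, was at -0.23 (edgeR adjusted p = 0.118) and SPRY4 at 0.21 (edgeR adjusted p = 0.111).

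Exon choice between the IIIb and IIIc forms of FGF receptors is made by splicing factors. The deposited values are per gene, so the forms themselves were not measured. ESRP2, which favours the epithelial IIIb exon, fell from 16.9 ± 1.09 to 9.03 ± 0.604 CPM (-0.90 ± 0.09, edgeR adjusted p = 1.1e-05). Its relative ESRP1 was near absent, with 6 reads in controls and 8 after TGF-β1. PTBP1, a repressor of exon use, was higher by a small margin (0.16 ± 0.05, edgeR adjusted p = 0.0301), a call lost with total counts only and when control replicate 2, control replicate 3 and then the second TGF-β1 library were each left out. RBFOX2 had 290, 321 and 444 reads in controls and 421, 718 and 775 after TGF-β1, with overlapping groups, and was not called (0.88, edgeR adjusted p = 0.139). It was called without TGF-β1 replicate 1 (1.14, edgeR adjusted p = 0.0277), it has a second entry under its name, and the cause was not tested.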

How the data were processed

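Poly(A) RNA of 6 HK-2 libraries was sequenced, and the authors deposited raw counts per gene, with TPM and FPKM per the file headers. FPKM was not used, and the deposited TPM was checked against values recomputed from counts and lengths. The notes of the submitters name CASAVA, featureCounts 2.0.1, DESeq2 1.16.1 and hg38, and the aligner is not given in the sources used here. Each table listed 42095 entries, and 598 without a gene name, with 0.396% to 0.464% of the counts, were left out. Totals were 21.9 to 26.9 megacounts per library. Intervals of read ratios cover counting error only, and those of log2 fold changes come from the edgeR fit and include the spread between libraries.

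Groups were taken from the treatment label of each library. Counts were filtered with filterByExpr (minimum count 10), scaled with TMM and compared with the two-sided quasi-likelihood F test of edgeR 4.0.16, adjusted by Benjamini-Hochberg over 14860 genes. CPM used TMM-scaled totals. The SE was the log2 fold change divided by the square root of F. Shares of deposited TPM were compared by exact permutation tests, and genes under the filter by exact binomial tests of reads. Promoters were those of RefSeq (GRCh38.p14), with 8 of the 10 genes matched.

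The genes and lists were chosen with earlier results of these data known. Of each list, up to 4 called genes at 1 CPM or more on average were named by size of change, with all splicing regulators. FGFRL1, FLRT3, SDC2, SDC4, EXT1, GLCE, HS6ST1, HS3ST1, FRS2, SOS1, ETV4 and ETV5, and genes named without a call, were chosen after their values were seen, as was the GC box motif. Alternatives were DESeq2 1.42.0, limma-voom (limma 3.58.1), RLE factors, scaling by totals, no count filter beyond a single count, a mean of at least 50 counts, entries of a name summed, the replicate number as a block, and each library left out in turn. Some genes of the lists are not reported here. Other tools were R 4.3.3, Python 3.11.15, pandas 2.3.3, scipy 1.17.1 and matplotlib 3.10.9.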

Additional observations from a re-analysis of the deposited data

How the results depend on the processing

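FGF1, FGF2 and FGFR2 were called in all 14 alternatives, FGFR3 in 12 and FGFR1 in 10. FGF5 and FGFR4 were called in none, and FGF18 in 1 of the 13 that tested it. FGFR4 turned to a positive sign without control replicate 1 (0.0194) and without control replicate 2 (0.0346). Of the values for these genes, 102 kept direction and call, 6 lost a call, 1 gained a call and 2 changed sign. For the other named genes, 563 kept both, 21 lost a call and 2 gained one.

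Scaling by total counts only, which moved the median of all genes from 0.01 to -0.10, left 2134 genes called higher in place of 3294, and 1 FGF gene of the 10 called higher in place of 2. With it, 5 heparan sulfate enzymes were called lower, the relay had 3 called higher and 2 lower, 4 feedback inhibitors were called lower and 0 splicing regulators higher. At a mean of at least 50 counts, 1 co-receptor was called lower, since fewer genes were tested. With limma-voom, 0 relay genes were called lower and 1 feedback inhibitor higher, and with entries of a name summed 1 feedback inhibitor was called higher. Leaving out each library in turn gave 1 to 2 FGF genes called higher, 0 to 1 relay genes lower, 0 to 2 feedback inhibitors higher and 0 to 2 splicing regulators higher. The read ratio of FGFBP1 ranged from 0.279 to 0.392, an alternative chosen after the data were seen, and was 0.382 (exact conditional p = 0.0502) without control replicate 2. The cause of the other changes was not tested.

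With CPM in place of TPM, which drops the division by length, the receptor shares changed by 7.73 percentage points for FGFR1 and -7.52 for FGFR2, and the ligand shares by 1.54 for FGF2, -0.908 for FGF1 and -0.371 for FGF18.

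Deviations of libraries with the same replicate number correlated at 0.11, -0.01 and 0.08, so the numbers were not taken to pair the libraries. With the replicate block, 3396 genes were called higher and 3394 lower, and the FGF calls numbered 2 higher and 3 lower as without it. The block called RBFOX2 higher (0.84, edgeR adjusted p = 0.0280), giving 2 splicing regulators called higher in place of 1. Reads under about 10 per library limit FGFBP1 and FGF9.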
